A study of Mus musculus with 9 samples.

Results

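The glycolysis and hypoxia response genes examined here are a list of 35 genes, read from the expression table by symbol: glucose and lactate transporters, the enzymes that turn glucose into pyruvate and lactate, and the sensors, transcription factor subunits and responders of the hypoxia pathway. All 35 were found among 43539 gene identifiers with values, and all 35 were among the 18714 genes tested, which had a mean of at least 0.5 FPKM (Cufflinks' measure of expression, scaled for transcript length and library size). The rule that lists them uses no measured value.

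RNAseq was performed on tissue of mouse embryos at E14.5, in mid-gestation, in 3 groups of 3 libraries. The MCAGF8 cranial vault carried Msx2-Cre and the CAGF8 allele, a ROSA26 Lox-Stop-Lox allele in which the strong CAG promoter drives Fgf8b once Cre has removed the stop. Msx2-Cre acts in the surface ectoderm of the head and not in the mesenchyme below it, and the skin was peeled off before the vault was taken. Embryos without Cre, which the labels call wildtype, gave the control cranial vault and, as cartilage, the control cranial base. The CAGF8 colony was kept homozygous, so controls born to a homozygous parent would hold the allele in its silent form. The strain is given as mixed. Each library pooled 3 of the 9 tissue samples of its group, so the errors below are spreads between pools and not between embryos, and whether vault and base pools share control embryos is not stated.

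Glycolysis splits glucose into pyruvate and yields ATP without oxygen, and lactate dehydrogenase and the lactate exporters keep it running. Under low oxygen, prolyl hydroxylases stop marking the HIF alpha subunits for destruction, and the HIF dimer raises transcription of most glycolytic genes and of responders such as Bnip3, Ndrg1 and Car9. HIF-1 is needed for survival of chondrocytes in the growth plate, a cartilage without blood vessels, and both chondrocytes and osteoblasts use glycolysis heavily. HIF alpha subunits are regulated mainly as proteins, so RNA levels of Hif1a do not measure HIF activity.

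The libraries summed to between 793249 and 1315981 FPKM and detected 16006 to 17281 genes at 1 FPKM or more. The number of reads behind them is unknown. Fgf8 was at 13.5, 8.25 and 3.01 FPKM in the control vault, 19.5, 9.43 and 13.0 in the MCAGF8 vault and 3.78, 17.4 and 5.82 in the control base. These groups overlapped, and the MCAGF8 vault against control vault test did not pass (limma adjusted p = 0.969). Marker lists separated the tissues more clearly. The summed FPKM of 10 osteoblast markers was 1373 to 3373 in the control vault, 140 to 288 in the MCAGF8 vault, where Bglap2 was at 0 in every library, and 491 to 1377 in the control base. Among base libraries, replicate 2 stood apart, with 10679 FPKM summed over 12 chondrocyte markers against 1202 and 1663 in the others. That sum was 2098 to 3056 in the control vault and 2866 to 5283 in the MCAGF8 vault, above base replicates 1 and 3 in every library.

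HIF binds DNA at a core of A or G followed by CGTG, and promoters of 5 members that carry that core are shown. The windows run from 250 bases before to 50 after a RefSeq transcription start (GRCm38.p6), on the strand of the gene. Capitals mark each ACGTG or GCGTG, read on both strands, so CACGT and CACGC are the same letters on the other strand and the palindrome CACGTG counts as a match on each. Aldoc was called and has 2 starts. Slc2a1, Slc16a1, Slc16a3 and Bnip3 were added after their values had been seen. The windows of Pfkl and P4hb, whose libraries also separated in 1 comparison, hold the core too and are not shown.
Aldoc, chr11:78322823-78323122, plus strand: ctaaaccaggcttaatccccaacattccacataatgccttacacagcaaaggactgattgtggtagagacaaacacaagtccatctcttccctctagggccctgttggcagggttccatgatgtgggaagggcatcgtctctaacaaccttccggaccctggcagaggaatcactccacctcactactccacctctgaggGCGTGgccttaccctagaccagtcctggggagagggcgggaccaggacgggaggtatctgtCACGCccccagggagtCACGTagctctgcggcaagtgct
Aldoc, chr11:78323948-78324247, plus strand: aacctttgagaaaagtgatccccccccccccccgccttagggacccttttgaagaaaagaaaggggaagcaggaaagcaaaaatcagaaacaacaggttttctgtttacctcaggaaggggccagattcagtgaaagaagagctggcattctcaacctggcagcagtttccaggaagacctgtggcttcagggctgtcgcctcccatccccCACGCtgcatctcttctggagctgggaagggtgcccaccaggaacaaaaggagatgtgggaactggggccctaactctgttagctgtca
Slc2a1, chr4:119108495-119108794, plus strand: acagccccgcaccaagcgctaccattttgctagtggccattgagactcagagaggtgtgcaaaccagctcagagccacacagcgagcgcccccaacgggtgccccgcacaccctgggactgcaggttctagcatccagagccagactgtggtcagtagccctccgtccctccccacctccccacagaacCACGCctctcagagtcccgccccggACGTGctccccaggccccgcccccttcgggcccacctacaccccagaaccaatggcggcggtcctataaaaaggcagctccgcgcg
Slc16a1, chr3:104638414-104638713, plus strand: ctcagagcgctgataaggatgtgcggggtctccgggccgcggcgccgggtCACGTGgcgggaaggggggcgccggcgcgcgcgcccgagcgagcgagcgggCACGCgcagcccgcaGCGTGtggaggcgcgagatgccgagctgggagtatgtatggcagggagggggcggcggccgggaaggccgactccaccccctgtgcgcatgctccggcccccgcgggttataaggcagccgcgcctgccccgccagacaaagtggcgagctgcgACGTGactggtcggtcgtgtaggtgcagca
Slc16a3, chr11:120948817-120949116, plus strand: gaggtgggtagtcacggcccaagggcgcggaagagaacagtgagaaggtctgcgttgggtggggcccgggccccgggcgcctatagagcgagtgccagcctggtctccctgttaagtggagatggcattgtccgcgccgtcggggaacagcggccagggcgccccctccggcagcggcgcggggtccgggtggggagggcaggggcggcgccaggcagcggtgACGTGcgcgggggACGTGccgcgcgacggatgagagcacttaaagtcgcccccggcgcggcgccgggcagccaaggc
Bnip3, chr7:138909457-138909756, minus strand: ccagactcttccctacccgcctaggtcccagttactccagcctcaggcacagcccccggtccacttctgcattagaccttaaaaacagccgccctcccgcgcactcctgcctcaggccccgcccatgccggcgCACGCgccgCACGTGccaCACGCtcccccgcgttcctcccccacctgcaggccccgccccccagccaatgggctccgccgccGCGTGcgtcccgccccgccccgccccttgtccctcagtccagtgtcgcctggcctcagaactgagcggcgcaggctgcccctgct

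RefSeq gave 44 windows for 31 of the 35 genes. Of these, 37 (84.1%) held ACGTG or GCGTG, against 43.8% of all 32851 windows of the same length. The palindrome CACGTG, which overlaps ACGTG, was in 6 of the 44 (13.6%) and in 7.15% of all windows. The members' windows also had a higher content of G and C, with a median of 64.0% against 52.7%, and the part of base composition in the share was not tested. A match is a description of letters and not a binding site. Slc2a3, Epas1, Bnip3l and Ndrg1 had no window.

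**Figure D1:**
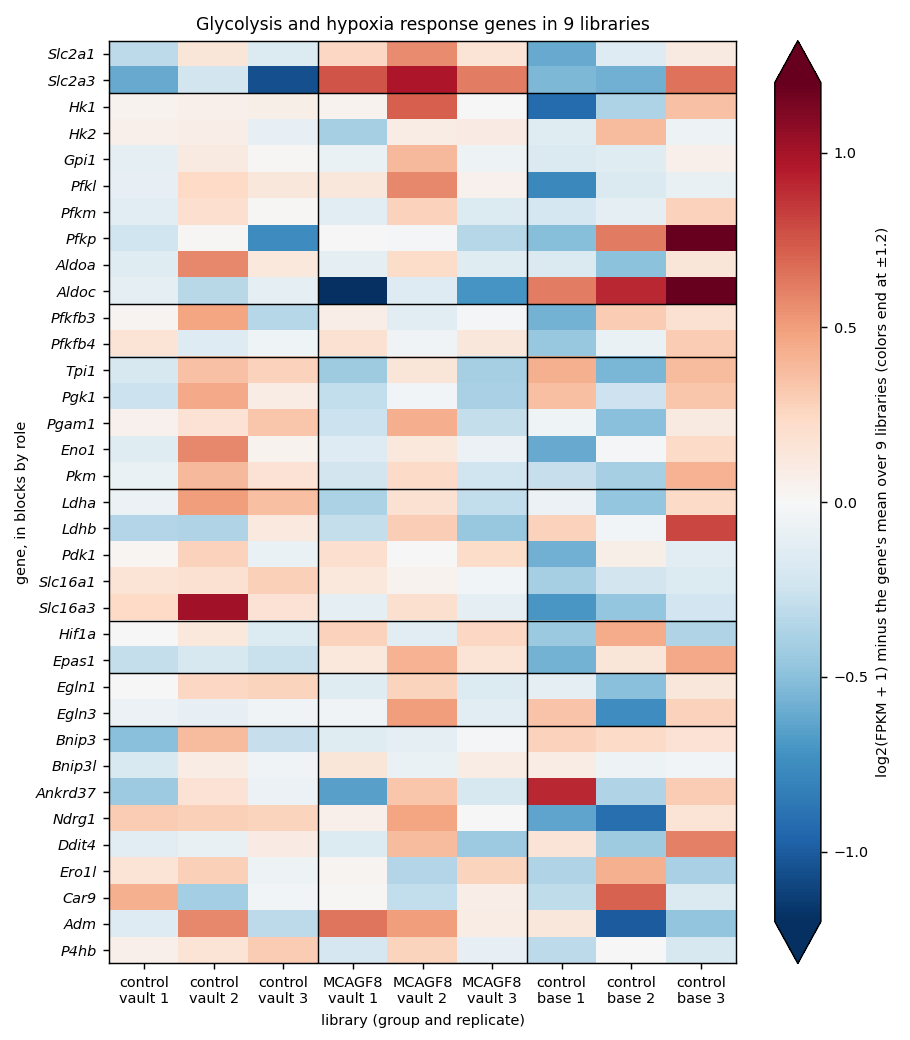
Each row is 1 of the 35 genes, in blocks by role from glucose transporters at the top to other hypoxia response genes at the bottom, and each column is 1 library. Color is log2(FPKM + 1) minus the mean of the gene over 9 libraries, and most rows vary as much within a group of 3 libraries as between groups, while Slc2a3 is above its mean in all 3 MCAGF8 vault libraries and Aldoc in all 3 base libraries.

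As a group, these genes were expressed at similar levels in the 3 tissues. The ratio of the highest to the lowest group mean had a median of 1.278 over the 35 genes and was under 1.5 for 28 of them (80.0%). Over all genes tested, the median was 1.391 and 58.2% were under 1.5. Those genes were not matched to the members in expression level. The most abundant were P4hb, which averaged 992 FPKM over the 9 libraries, Tpi1 at 909, Ldha at 775, Aldoa at 540 and Pkm at 502. At the other end, Car9, a carbonic anhydrase that is among the most oxygen-sensitive genes, averaged 1.45 FPKM, Adm 3.61 and Pfkfb4 8.31.

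Some libraries were high or low for most members together. In control vault replicate 2, 27 of the 35 genes were above their own mean over the 9 libraries, and in MCAGF8 vault replicate 2 it was 25. In control base replicates 1 and 2 it was 10 and 11. The summed FPKM of 15 glycolysis enzymes ran from 3148 to 4547 in the control vault, from 2864 to 3998 in the MCAGF8 vault and from 2639 to 4258 in the control base, so the groups overlapped.

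The first comparison asked which of these genes differed in the vault when Fgf8b was activated in the ectoderm. Between the MCAGF8 and control cranial vault, no member was called, where a call needed both an adjusted p under 0.1 (Benjamini-Hochberg, over all genes tested) and an unadjusted p under 0.05 in limma. That held for 0.604% of all genes. At an unadjusted p under 0.05 alone there was 1 member, Slc2a3, against 6.34% of all genes. In 3 genes, Slc2a1, Slc2a3 and Epas1, all MCAGF8 libraries were above all control libraries, where 9.9% of all genes separated that way. Slc16a1 was the only member with all MCAGF8 libraries below, where 9.35% of all genes were. The members' median log2 difference was -0.06, with 15 higher and 20 lower, and that of all genes was -0.01. Under 5 other scalings and length corrections the members' median ran from -0.09 to 0.10, so its sign is not settled. The 95% confidence interval lay within a 2-fold change in either direction for 27 of the 35 members and for 65.0% of all genes. In bulk tissue, fewer cells of a type and less RNA per cell cannot be told apart.

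The second comparison set the MCAGF8 vault against the control cranial base, which was dissected as cartilage. Here 1 member, Aldoc, was called, and it was lower. Of all genes, 8.39% were called and 5.41% were called lower. An unadjusted p under 0.05 was reached by 6 members, against 19.6% of all genes. All MCAGF8 libraries were above all base libraries for Slc2a1, Pfkl, Slc16a1 and Slc16a3, where 8.9% of all genes separated so. They were below for Aldoc and Bnip3, where 13.0% of all genes were. The members' median log2 difference was 0.11, with 23 higher and 12 lower, against -0.07 for all genes. Of the members' intervals, 24 lay within a 2-fold change, as did those of 54.4% of all genes.

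The third comparison set the control cranial base against the control vault. No member was called, against 3.06% of all genes, and 4 members reached an unadjusted p under 0.05, against 12.8% of all genes. Aldoc was the only member with all base libraries above all vault libraries, where 8.86% of all genes were. Slc16a1, Slc16a3, Ndrg1 and P4hb had all base libraries below, where 6.69% of all genes did. The members' median log2 difference was -0.09, with 13 higher and 22 lower, against 0.07 for all genes. Of the members' intervals, 25 lay within a 2-fold change, as did those of 61.0% of all genes. Each group takes part in 2 of the 3 comparisons, so their values are not independent.

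**Figure D2:**
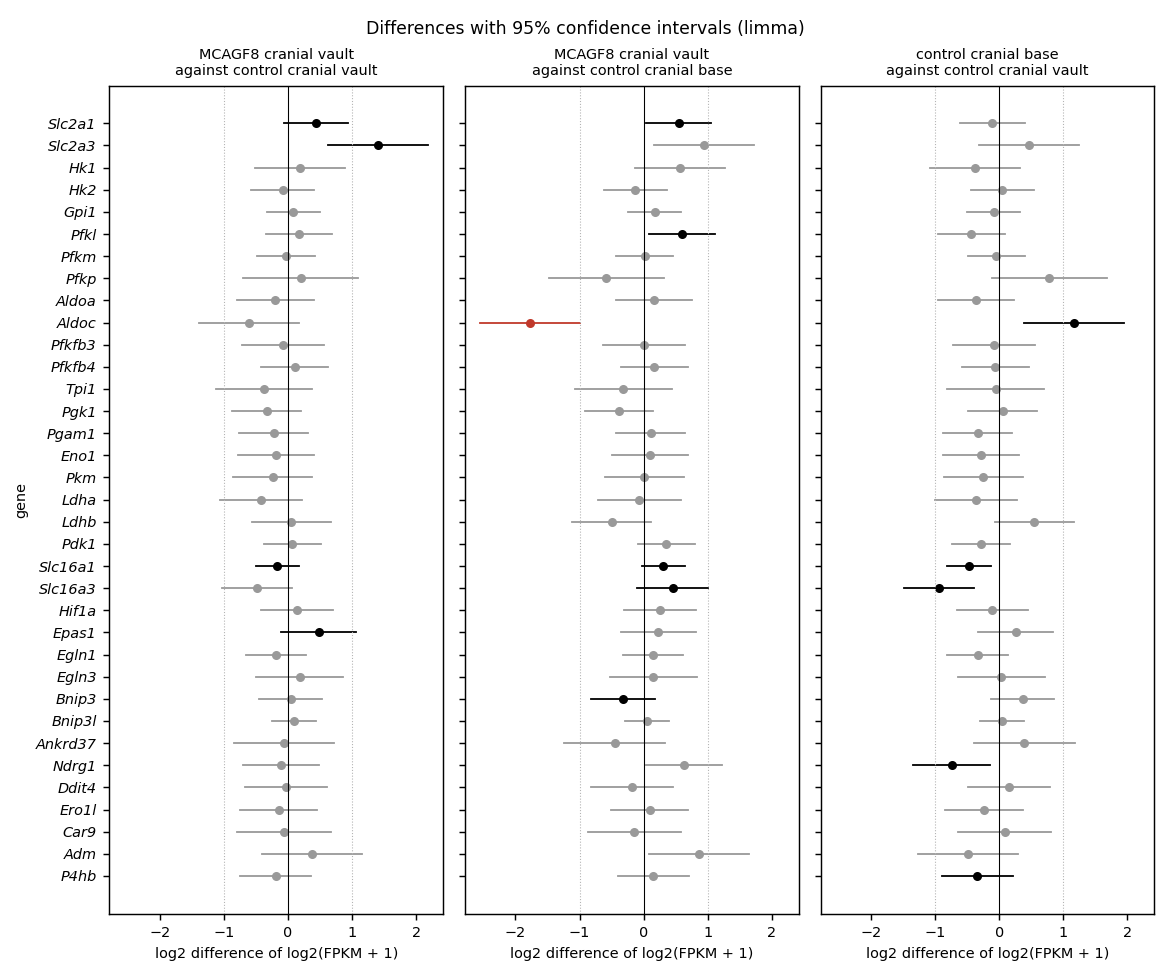
For each of the 35 genes, the point is the log2 difference on the log2(FPKM + 1) scale and the bar its 95% confidence interval, in 3 panels for the 3 comparisons. Red marks the called gene (Aldoc, -1.77), black marks genes whose libraries did not overlap between the groups, grey marks the rest, and the dotted lines mark a 2-fold change.

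The glucose transporters held the widest separation between the vaults. Slc2a3 encodes GLUT3, a transporter of high affinity for glucose. It was at 9.83, 13.2 and 6.96 FPKM in the control vault, 26.9, 31.3 and 24.3 in the MCAGF8 vault and 10.4, 10.04 and 24.9 in the control base. All MCAGF8 vault libraries were above all control vault libraries, and base replicate 3 was at the level of the MCAGF8 vault. Mean FPKM was 2.75-fold higher in the MCAGF8 vault than in the control vault, and the log2 difference of 1.41 (SE 0.35) did not pass (limma adjusted p = 0.209). It passed in 2 of 23 alternatives, when the base libraries were left out of the fit (limma adjusted p = 0.0882 to 0.684 over all alternatives) or when base replicate 3 was. Against the base, the log2 difference was 0.94 (SE 0.35, limma adjusted p = 0.174), and it was called in 2 of 23 alternatives, with quantile normalization and without base replicate 3, where it was 1.34 (limma adjusted p = 0.0381).

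Slc2a1, which encodes GLUT1, the transporter that most cell types use, was the more abundant of the pair. It was at 52.5, 72.7 and 58.3 FPKM in the control vault, 78.2, 97.2 and 73.5 in the MCAGF8 vault and 42.6, 58.6 and 70.8 in the base. The MCAGF8 vault was above both controls in every library, with log2 differences of 0.44 against the vault and 0.55 against the base, neither of which was called. Both transporters were higher in the MCAGF8 vault than in the control vault under every scaling tried.

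Marker sums followed Slc2a3 in some libraries and not in others. The summed FPKM of 12 epidermal markers was 38.4 to 134 in the control vault. It was 471, 430 and 1175 in the MCAGF8 vault and 576, 119 and 769 in the base. Base replicate 3 was the highest base library for this sum and for Slc2a3. Base replicate 1, at 576, had 10.4 FPKM of Slc2a3. Within the MCAGF8 vault, replicate 3 had the largest epidermal sum and the lowest Slc2a3, at 24.3 FPKM. For 12 chondrocyte markers it was 2098 to 3056 in the control vault, 2866 to 5283 in the MCAGF8 vault and 1202, 10679 and 1663 in the base. Base replicate 2, with the largest chondrocyte sum, was the lowest base library for Slc2a3. The part of either cell type in the Slc2a3 result was not tested.

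Slc2a3 made up 15.8%, 15.3% and 10.7% of the summed FPKM of both transporters in the control vault, and 25.6%, 24.4% and 24.8% in the MCAGF8 vault. In the base it made up 19.6%, 14.6% and 26.0%. The vault groups did not overlap in this share, and the base overlapped both. Shares of isozymes and paralogs were chosen after their values had been seen and are given as a description.

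**Figure D3:**
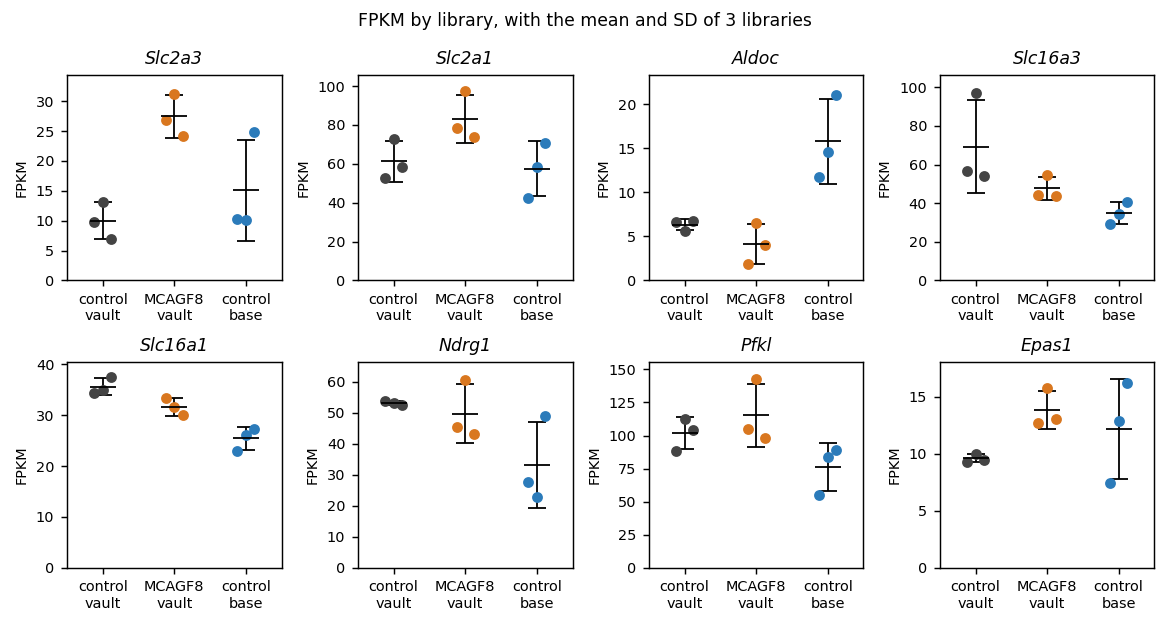
FPKM of 8 genes in the 3 libraries of each group, with the mean and SD (n = 3 pools) as a bar and each axis starting at 0. Slc2a3 is at 24.3 to 31.3 in the MCAGF8 vault against 6.96 to 13.2 in the control vault, and Aldoc is at 11.7 to 21.1 in the base, above every vault library.

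Among the enzymes of upper glycolysis, Aldoc stood apart. It encodes aldolase C, the form known from brain, which splits fructose-1,6-bisphosphate beside the ubiquitous aldolase A. Aldoc was at 6.63, 5.60 and 6.70 FPKM in the control vault, 1.90, 6.46 and 4.07 in the MCAGF8 vault and 11.7, 14.6 and 21.1 in the base. Every base library was above every vault library, while the vault groups overlapped. Mean FPKM was 3.81-fold higher in the base than in the MCAGF8 vault, and the MCAGF8 vault was lower by a log2 difference of -1.77 (SE 0.35, limma adjusted p = 0.0203). This call held in all 23 alternatives run, with adjusted p between 0.00956 and 0.0877. Against the control vault, the base was higher by 1.16 on the log2 scale (SE 0.35), which did not pass (limma adjusted p = 0.156) except with the trend on exon length and GC content removed. The MCAGF8 and control vaults differed by -0.61 (SE 0.35, limma adjusted p = 0.957).

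Marker sums of neurons and of hypertrophic chondrocytes separated the base from both vaults, as Aldoc did. The summed FPKM of 8 neuronal genes was 35.6 to 82.5 in the control vault, 47.0 to 83.8 in the MCAGF8 vault and 333 to 1239 in the base. All 8 were called lower in the MCAGF8 vault than in the base, and none was at 0 in every library of a group. Within the MCAGF8 vault, replicate 1 had a neuronal sum of 61.3 with Aldoc at 1.90, and replicate 3 had 47.0 with Aldoc at 4.07. For 3 hypertrophic chondrocyte markers the sum was 6.3 to 13.1 in the control vault, 1.4 to 2.1 in the MCAGF8 vault and 96.8 to 684 in the base. All 3 were called lower in the MCAGF8 vault than in the base. Base replicate 2 had the largest of these sums, while Aldoc was highest in base replicate 3. The part of either cell type in the Aldoc result was not tested. Pfkp, the platelet type of phosphofructokinase, was also highest in base replicate 3, which had the largest neuronal sum. Pfkp was at 12.5, 28.7 and 44.7 FPKM in the base, 10.4 to 18.4 in the control vault and 14.2 to 18.1 in the MCAGF8 vault. The base was higher than the control vault by 0.78 on the log2 scale (SE 0.40), which was not called (limma adjusted p = 0.485) except without base replicate 1, where it was 1.26 (adjusted p = 0.0652). Without the same library, the MCAGF8 vault was also called lower than the base, at -1.06 (limma adjusted p = 0.0835) in place of -0.58.

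The other upper enzymes moved little. Hk1 and Hk2, the hexokinases that trap glucose in the cell, averaged 39.2 and 14.3 FPKM in the control vault, 46.1 and 13.6 in the MCAGF8 vault and 32.0 and 15.0 in the base. Pfkl, the liver type of phosphofructokinase, averaged 102 ± 12.1 (SD, n = 3) in the control vault, 115 ± 23.9 in the MCAGF8 vault and 76.1 ± 18.2 in the base, and it was the only enzyme of this block with MCAGF8 libraries all above the base libraries, by 0.60 on the log2 scale. That difference was not called (limma adjusted p = 0.188) except without base replicate 2, where it was 0.69 (adjusted p = 0.0951), and with the trend on exon length and GC content removed. Gpi1, Pfkm and Aldoa differed between group means by ratios of 1.137, 1.027 and 1.2914. Pfkfb3 and Pfkfb4, which make the phosphofructokinase activator fructose-2,6-bisphosphate, stayed within 8.34 to 18.2 and 5.72 to 10.4 FPKM over the 9 libraries.

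All 5 enzymes of lower glycolysis, Tpi1, Pgk1, Pgam1, Eno1 and Pkm, had a lower value in the MCAGF8 vault than in the control vault, with none called. Their median log2 difference was -0.24, and the 5 values ran from -0.37 to -0.19. All 5 kept that sign under each of 5 other scalings and length corrections, with medians of -0.29 to -0.07. The libraries of the groups overlapped in each gene. The base was also lower than the control vault in 4 of the 5, with a median log2 difference of -0.25. Against the base, the MCAGF8 vault was higher in 3 and lower in 2, with a median of 0.01. Tpi1, triose phosphate isomerase, was at 770, 1122 and 1063 FPKM in the control vault and 655, 970 and 666 in the MCAGF8 vault, and at 1185, 601 and 1147 in the base. Pgk1, phosphoglycerate kinase, averaged 52.8 ± 13.3 (SD, n = 3), 41.1 ± 5.49 and 54.8 ± 12.2 FPKM in the control vault, the MCAGF8 vault and the base. In the same order, Pgam1 averaged 66.2, 57.9 and 52.8 FPKM, Eno1 226, 194 and 186 and Pkm 556, 472 and 478. The summed FPKM of 15 skeletal muscle markers was 1219, 7472 and 2068 in the control vault and 63.0, 97.5 and 333 in the MCAGF8 vault. Control vault replicate 2 was the highest vault library for Tpi1, Pgk1, Eno1 and Pkm, and not for Pgam1. Base replicate 1, with the largest muscle sum at 13460, was the highest library for Tpi1 and the lowest for Eno1. The part of muscle in these values was not tested.

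Gapdh, which acts between these enzymes and is no member, was at 83.3 to 107 FPKM in the control vault and 67.6 to 96.0 in the MCAGF8 vault, and at 81.0 to 159 in the base. It was not called in any comparison.

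Among the genes of lactate and pyruvate handling, Slc16a3 had the largest difference between the base and the control vault. It encodes MCT4, which exports lactate from glycolytic cells. It was at 56.6, 97.2 and 54.2 FPKM in the control vault, 44.4, 54.7 and 43.9 in the MCAGF8 vault and 29.1, 34.5 and 40.6 in the base. The base was below both vaults in every library, and the vaults overlapped through a single control library at 54.2. The base was lower than the control vault by a log2 difference of -0.94 (SE 0.24, limma adjusted p = 0.107), and 4 of 23 alternatives called it. The difference between the vaults was -0.49 (SE 0.24, limma adjusted p = 0.880). Control vault replicate 2, the highest library for Slc16a3, also had the largest muscle marker sum of the vaults, at 7472 FPKM. The base had muscle sums of 2267 to 13460 and the lowest Slc16a3. The part of muscle in the Slc16a3 values was not tested.

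Slc16a1, which encodes MCT1 and carries lactate in both directions, was at 34.4, 34.9 and 37.5 FPKM in the control vault, 33.5, 31.6 and 30.0 in the MCAGF8 vault and 22.9, 26.2 and 27.2 in the base. No group overlapped another, and the MCAGF8 vault lay between the controls. The steps were small, with log2 differences of -0.16 between the vaults, 0.31 between the MCAGF8 vault and the base and -0.47 between the base and the control vault, none of them called.

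Ldha, which turns pyruvate into lactate, averaged 920 ± 180 FPKM (SD, n = 3) in the control vault, 685 ± 149 in the MCAGF8 vault and 720 ± 170 in the base. Ldhb, the form that favors the return to pyruvate, averaged 98.1 ± 19.4, 103 ± 29.7 and 146 ± 43.7. The Ldhb share of both was 10.8%, 7.49% and 11.0% in the control vault, 13.6%, 13.8% and 11.6% in the MCAGF8 vault and 15.8%, 16.6% and 17.9% in the base. The 3 groups did not overlap in this share. A near copy of Ldhb, Gm5514, took 20.6% to 42.9% of their joint signal, and with it added the vault groups overlapped, as the MCAGF8 vault and the base did once the trend with exon length and GC was removed. Pdk1, a kinase that inhibits pyruvate dehydrogenase, averaged 55.4, 58.0 and 45.8 FPKM in the control vault, the MCAGF8 vault and the base.

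**Figure D4:**
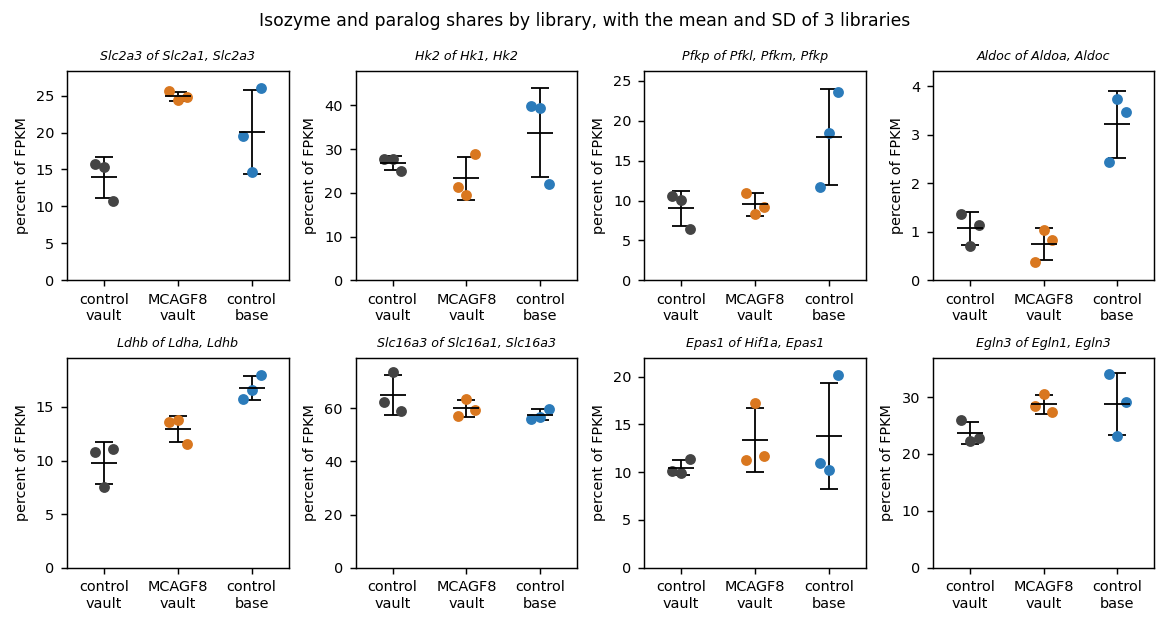
Share of 1 isozyme or paralog in the summed FPKM of its pair or family, in percent, for the 3 libraries of each group, with the mean and SD (n = 3 pools). Shares of Slc2a3 are 24.4% to 25.6% in the MCAGF8 vault and 10.7% to 15.8% in the control vault, and shares of Aldoc are 2.44% to 3.74% in the base against at most 1.36% in the vaults.

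In the same way, Aldoc made up 2.44% to 3.74% of aldolase A and C in the base, 0.706% to 1.36% in the control vault and 0.386% to 1.04% in the MCAGF8 vault. Pfkp made up 11.7% to 23.6% of the phosphofructokinases in the base, 6.47% to 10.6% in the control vault and 8.27% to 11.0% in the MCAGF8 vault. In both families the base did not overlap either vault, with or without near copies or the length trend. The shares of Hk2 and Slc16a3 overlapped between all groups.

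The HIF alpha subunits differed less. Hif1a was at 82.5, 90.8 and 73.8 FPKM in the control vault, 101, 75.8 and 98.5 in the MCAGF8 vault and 60.6, 113 and 64.3 in the base. All groups overlapped, and base replicate 2 was the highest of all 9. That library had the most chondrocyte marker signal and also the largest slope of expression on exon length (0.096). Without that library the MCAGF8 vault against base difference rose from 0.25 (limma adjusted p = 0.634) to 0.54 and was called (adjusted p = 0.0757). The share of all genes called rose without it too, as given below. With the length slope as a covariate, the median of both subunits against the base was 0.04 in place of 0.24. The part of cartilage or exon length in the Hif1a values was not tested. Epas1, which encodes HIF-2 alpha and is known from endothelium, was at 9.32, 9.99 and 9.46 FPKM in the control vault, 12.7, 15.8 and 13.0 in the MCAGF8 vault and 7.47, 12.9 and 16.2 in the base. The vault groups did not overlap, by a log2 difference of 0.48 that was not called. The summed FPKM of 8 endothelial markers was 285 to 327 in the control vault, 330 to 457 in the MCAGF8 vault and 238 to 275 in the base. The base was thus below every vault library in that sum, while its Epas1 values reached 16.2 FPKM. The part of endothelium in the Epas1 values was not tested.

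The prolyl hydroxylases that mark HIF for destruction did not separate. Egln1 was at 43.7, 52.0 and 52.8 FPKM in the control vault, 39.4, 52.7 and 38.8 in the MCAGF8 vault and 40.1, 30.4 and 48.0 in the base. Egln3, which is itself raised by HIF, was at 15.3, 14.9 and 15.6 FPKM in the control vault, 15.6, 23.2 and 14.6 in the MCAGF8 vault and 20.7, 9.20 and 19.7 in the base. The groups overlapped for each gene in all 3 comparisons. The Egln3 share of the pair was 27.3% to 30.6% in the MCAGF8 vault and 22.3% to 26.0% in the control vault, without overlap.

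Of the other hypoxia response genes, none was called in any comparison. Ndrg1, a stress-responsive gene of differentiating cells, was at 53.9, 53.1 and 52.6 FPKM in the control vault, 45.3, 60.6 and 43.2 in the MCAGF8 vault and 27.6, 22.8 and 48.8 in the base. The base was below the control vault in every library, by a log2 difference of -0.75 (SE 0.27, limma adjusted p = 0.246), and base replicate 3 set the size of the spread. Without that library the difference was -1.06 and was called. The MCAGF8 vault was above the base by 0.63 (SE 0.27, limma adjusted p = 0.230), and by 0.94 without base replicate 3, which was called (adjusted p = 0.0439).

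Adm, which encodes the vasodilator adrenomedullin, was at 2.91, 5.47 and 2.49 FPKM in the control vault, 5.77, 5.15 and 3.61 in the MCAGF8 vault and 3.76, 1.18 and 2.12 in the base. The MCAGF8 vault was above the base by 0.86 on the log2 scale (SE 0.35, limma adjusted p = 0.214), with 1 base library overlapping, and 3 of 22 alternatives called it. Bnip3, a mitophagy receptor, averaged 62.1 ± 21.04 FPKM (SD, n = 3) in the control vault, 61.8 ± 3.16 in the MCAGF8 vault and 77.5 ± 2.90 in the base, and every base library was above every MCAGF8 library. Its relative Bnip3l averaged 47.9, 51.4 and 49.4, the narrowest range over libraries of the 35 genes, with a highest library 1.26 times the lowest.

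The remaining responders did not separate the MCAGF8 vault from either control. Ankrd37 averaged 23.3, 22.9 and 32.4 FPKM in the control vault, the MCAGF8 vault and the base, and Ddit4, an inhibitor of mTORC1 signaling, 92.5, 92.7 and 107. Ero1l, an oxidase of disulfide bond formation, averaged 16.1, 14.6 and 13.96. P4hb, which serves disulfide formation and as the beta subunit of collagen prolyl hydroxylase, averaged 1112 ± 95.4 (SD, n = 3), 983 ± 173 and 880 ± 99.2. Car9 stayed between 0.787 and 2.89 FPKM in all libraries.

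Vegfa, a HIF target that is no member, was at 38.0 to 99.5 FPKM in the control vault, 47.3 to 129 in the MCAGF8 vault and 45.9 to 120 in the base, and was not called.

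Genes of the same pathways outside the 35 were counted from lists that are not complete pathways. Of 36 other genes of glycolysis, glycogen and pyruvate that were tested, none was called between the vaults, 2 were called higher and 4 lower in the MCAGF8 vault than in the base, and 1 was called lower in the base than in the control vault. Of all genes, 0.604%, 8.39% and 3.06% were called in the same comparisons. Lower in the MCAGF8 vault than in the base were Pgam2 (log2 difference -2.30), Eno3 (-1.84) and Fbp2 (-1.53), muscle forms of glycolytic and gluconeogenic enzymes, and Pygl (-1.07), liver glycogen phosphorylase. Of the alternatives run, Fbp2 was called in 22 of 22, Eno3 in 21 of 23, Pgam2 in 13 of 23 and Pygl in 11 of 23. Pgam2 and Pygl were not called with only the libraries compared. The summed FPKM of 15 skeletal muscle markers was 63.0 to 333 in the MCAGF8 vault, 2267 to 13460 in the base and 1219 to 7472 in the control vault, and its part in these results was not tested. Pygb, brain glycogen phosphorylase, was higher by 1.36 and called in 23 of 23 alternatives, from 56.3, 70.3 and 95.8 FPKM in the base to 184, 230 and 154 in the MCAGF8 vault. The control vault was at 125, 143 and 132, below the MCAGF8 vault in every library. The gene called between base and control vault was Hk3, a hexokinase of myeloid cells, with a log2 difference of -0.95 in the base. The macrophage marker sum was 117 to 267 FPKM in the base and 260 to 331 in the control vault, so the ranges overlapped. The part of macrophages in the Hk3 result was not tested. Hk3 was called in 12 of 22 alternatives and not with only the libraries compared.

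Of 39 other hypoxia response genes tested, none was called between the vaults. Against the base, 4 were called higher in the MCAGF8 vault, Angptl4 (log2 difference 1.24), Cited2 (1.01), Lox (0.96) and Hmox1 (0.85), and Ppp1r3c was called lower (-0.69). Of all genes, 8.39% were called in that comparison, and 5.41% were called lower. Cited2, which competes with HIF for its coactivator, was at 27.4, 27.4 and 33.3 FPKM in the base, at 58.1, 78.9 and 47.2 in the MCAGF8 vault and at 44.3 to 49.7 in the control vault. Between base and control vault, Nrn1, a neuronal gene, had a log2 difference of 2.83 and Lox, the collagen crosslinking oxidase, of -1.18. Both were called, as were 3.06% of all genes. Against the base, Cited2 was called in 23 of 23 alternatives, Lox in 19, Angptl4 in 18, Ppp1r3c in 17 and Hmox1 in 13, and of these only Cited2 was called with only the libraries compared. Between base and control vault, Nrn1 and Lox were each called in 18 of 23, Lox but not Nrn1 with only the libraries compared.

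None of 29 genes of mitochondrial respiration was called. Of these, 25 had a lower value in the MCAGF8 vault than in the control vault, with a median log2 difference of -0.25, and 24 than in the base, with a median of -0.32. Under the same 5 scalings and length corrections, the first median ran from -0.30 to -0.08, with 17 to 28 genes lower, and the second from -0.31 to -0.07, with 17 to 23 lower. The base had a median of 0.09 against the control vault, which turned to -0.02 or -0.03 with either length correction. The median of all genes was -0.01, -0.07 and 0.07 in the same comparisons. For base against control vault it was -0.05 with the loess trend removed, where the respiration median was -0.02. With the length slope as a covariate it was 0.07, where the respiration median was -0.03.

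Exon length moved with the differences. The libraries differed in the slope of expression on exon length, from -0.21 in base replicate 1 to 0.096 in base replicate 2, on the log2 scale for each doubling of length. Over the 35 members, the correlation of the log2 difference with log exon length was 0.248 between the vaults, 0.283 for the MCAGF8 vault against the base and -0.122 for base against vault. Over all 18568 genes with a length it was 0.153, 0.196 and -0.118. The points share libraries and are not independent. The 20 members longer than 3500 bases had a median difference of 0.07 between the vaults and the 15 shorter ones -0.06. Against the base, these medians were 0.20 and -0.14. With the trend on exon length and GC content removed, the called members rose from 1 to 5 against the base (Aldoc, Adm, Pfkl, Slc2a1 and Slc16a1) and from 0 to 4 between base and control vault (Slc16a3, Slc16a1, Aldoc and Ndrg1), and stayed at 0 between the vaults. The share of all genes called rose too, from 8.39% to 15.7% against the base, from 3.06% to 8.46% between base and control vault and from 0.604% to 0.919% between the vaults.

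**Figure D5:**
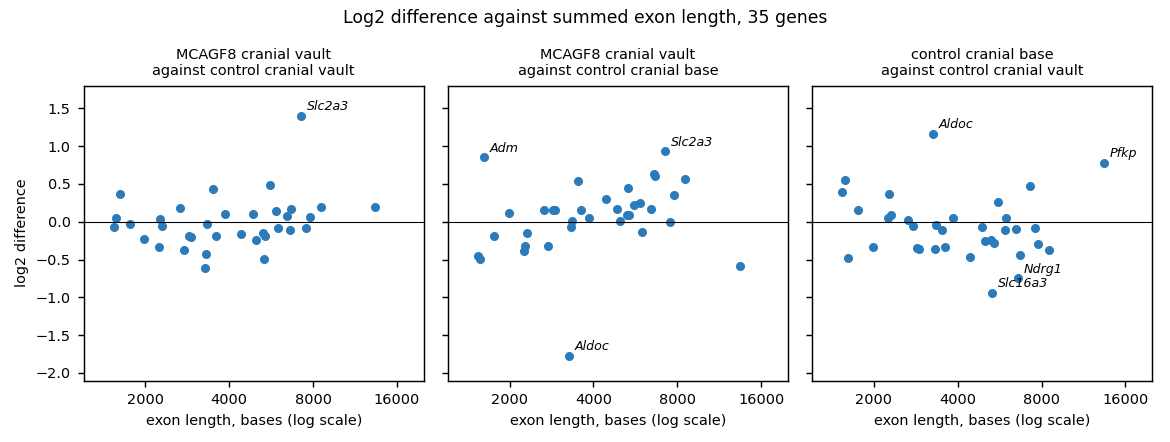
Log2 difference of each of the 35 genes against its summed exon length in bases, on a log scale, in 3 panels for the 3 comparisons. Genes with a difference over 0.7 in size are named, and against the base most of the short genes lie below 0 and most of the long ones above, with a correlation of 0.283.

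Near copies in the genome make several of these values uncertain. Of the 35 genes, 7 have a transcript at least 95% identical to a pseudogene or paralog, 10 copies in all. Eno1b reached 83.5 to 162 FPKM beside Eno1, and with Gm4735 took 16.2% to 22.9% of the joint signal. Pgam1-ps2 reached 24.8 to 56.9 FPKM and Pgam1-ps1 1.74 to 2.88, and Bnip3l-ps reached 29.7 to 38.9. By symbol alone, Ldha-ps2 was at 35.8 to 62.3 FPKM, Ldha-ps at 0.294 to 1.09 and Ero1lb, a separate gene, at 1.14 to 2.40. Adding the copies to their members changed no count of called members.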

How the data were processed

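RNA was sequenced from 9 pooled libraries, 3 per group, as stranded mRNA in single-end reads. The authors used gSNAP to map reads and Cufflinks to estimate expression, deposited as FPKM by Ensembl gene. Which build, annotation and versions they used is not given in the sources. Depth is unknown, as FPKM hold no counts, and the SD of 3 pools describes precision. FPKM divide by transcript length and by each library's own total, so a change in a few abundant genes moves the others.

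Rows repeating an identifier (63) were summed, and 9 genes with a placeholder (17 cells) were left out. Of 43548 identifiers, 42461 matched GENCODE M21, which gave symbols and exon lengths. Values were put on the scale log2(FPKM + 1), which understates changes of low genes, and limma 3.58.1 (R 4.3.3) was fitted to the 18714 genes averaging 0.5 FPKM or more (1 mean per group over 9 libraries, eBayes with trend, two-sided). Benjamini-Hochberg adjustment covered all genes tested. The fit was tested on simulated data. Nothing in the labels says that same-numbered libraries of different groups belong together, and p-values measure the spread between pools. Near copies were found with blastn 2.17.0 (at least 95% identity over 300 bases and 50% of the copy). Tables and plots used Python 3.11.15, pandas 2.3.3, numpy 2.4.6 and matplotlib 3.10.9.

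The members and lists were chosen with earlier results of these data known. Values in every library are given for called members and for Hif1a, Epas1, Egln1 and Egln3. SE and adjusted p are given for called members and for the 3 others with the largest difference in each comparison. Of other lists, at most 5 called genes are named in a comparison. Promoters are shown for called members holding the motif. Slc2a1, Slc16a1, Slc16a3, Ndrg1, Adm, Pfkp, Tpi1, Gapdh, Vegfa, Fgf8 and the isozyme shares were given library values or ranges after their values had been seen. The alternatives were pseudocounts of 0.1 and 0.01, no filter or a minimum mean of 5 FPKM, a common quantile distribution (quantile normalization), rescaling to a common median or to a sum of 1000000, only the libraries compared, the replicate block, a model without moderation, removal of a loess trend with exon length and GC (span 0.5, degree 2), the length slope as a covariate, unadjusted p, the highest repeated row and each library left out. Near copies added to members, and all alternatives for shares, were chosen after seeing the data.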

Additional observations from a re-analysis of the deposited data

How the results depend on the processing

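Between the vaults, the count of members called was 0 and became 1 (Slc2a3) with only the libraries compared, 1 at an unadjusted p under 0.05 alone, and 0 to 1 with each library left out, where the 1 came without base replicate 3. Against the base, the count was 1 and became 3 with quantile normalization, 2 with rescaling to a sum of 1000000, 5 with the loess trend removed, 2 with the length slope as a covariate and 6 at an unadjusted p. It was 1 to 3 with each library left out, at 2 without base replicate 1 (Aldoc and Pfkp), 3 without base replicate 2 (Aldoc, Hif1a and Pfkl) and 3 without base replicate 3 (Slc2a3, Ndrg1 and Aldoc). Between base and control vault, it was 0 and became 1 (Slc16a3) with quantile normalization or a common median, 1 (Slc16a1) without moderation, 4 with the loess trend removed, 2 with the slope as a covariate, 4 at an unadjusted p and 0 to 1 with each library left out, at 1 without base replicate 1 (Pfkp) or 3 (Ndrg1). The share of all genes called moved as well. Against the base it was 8.39% and became 10.5% with quantile normalization, 8.45% with the sum rescaled, 15.7% with the loess trend removed, 11.3% with the slope and 19.6% at an unadjusted p, and 7.37%, 24.5% and 6.43% without base replicates 1, 2 and 3. Between base and control vault it was 3.06% and became 3.35% with quantile normalization, 3.27% with a common median, 1.37% without moderation, 8.46% with the loess trend removed, 7.42% with the slope and 12.8% at an unadjusted p. Between the vaults it was 0.604%, and 0.93% with only the libraries compared. The cause of these moves was not tested. The share is not given here without base replicate 3 between the vaults, nor without base replicates 1 and 3 between base and control vault. The calls of Slc2a3, Pfkp and Ndrg1 in those fits therefore cannot be read against it.

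The members' median difference between the vaults moved from -0.06 to 0.10 with rescaling to a sum of 1000000, which turned its sign and moved the median of all genes to 0.13. Against the base it moved from 0.11 to 0.32, and that of all genes to 0.11. Higher members then numbered 24 in place of 15 and 27 in place of 23. With each library left out, the medians ran from -0.16 to 0.03, from -0.02 to 0.24 and from -0.19 to -0.04 in the 3 comparisons. Aldoc against the base was called under every alternative run.

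With the replicate block, the counts were 0, 1 and 0 and the medians were as without it. Correlations of same-numbered libraries' deviations ran from -0.55 to 0.37 over 9 pairs. Over 18 pairs of unlike number they ran from -0.48 to 0.56. The ranges overlap, and such correlations cannot show whether pools share embryos. Pools of 3 per group and an unknown depth limit what a missed call can say.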
